A study of Mus musculus with 10 samples.

Results

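Notch signalling was followed from ligand to target gene in the soft tissue of the newborn mouse cochlea, the hearing organ of the inner ear. The 39 genes were taken by symbol from a list of ligands, receptors, modifiers, cofactors and targets, each with at least 10 counts in at least 5 libraries. All 39 of the 39 listed genes met that minimum, out of 54532 genes in the count table and 17937 that were tested. The 10 libraries came from female mice on postnatal day 1, and each held RNA of both cochleae of 1 animal. Of these, 5 were of genotype Esrrgfl/fl (control) and 5 of genotype Esrrgfl/fl;Sox10-Cre (cKO), so the control animals carry the floxed Esrrg alleles too and lack the Cre. Esrrg encodes a nuclear receptor, and Sox10-Cre recombines in cells that have used the Sox10 promoter, which in the ear include the otic epithelium, glia and melanocytes but not most of the vessels that the tissue also holds. Strain and litter were not given in the sources used here, and no group analysed here carried Sox10-Cre without floxed Esrrg.

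Notch receptors are single-pass membrane proteins that are activated by ligands on a neighbouring cell. Endocytosis of the bound ligand exposes a cleavage site, ADAM proteases and then gamma-secretase cut the receptor, and its intracellular part enters the nucleus, where it joins the DNA-binding protein RBPJ and a Mastermind coactivator to switch on HES and HEY repressors. In the developing organ of Corti the pathway is known for lateral inhibition: a future hair cell displays Delta-like and Jagged ligands, and Notch activity in its neighbours keeps them as supporting cells. Outside the sensory epithelium, Notch4 and Dll4 are known from endothelium, and Notch3 and Heyl from pericytes and smooth muscle.

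The link between receptor and target is written in the DNA before the target genes. Upstream sequence was looked up for the members in RefSeq promoters (build GRCm38.p6), where 32 of the 39 genes matched. The window ran from 250 to 51 bases before the annotated start, and GTGGGAA, a form of the site bound by RBPJ, was searched on both strands. It was present for 5 of the 32 genes, which had 41 windows together, and in 4.35% of all 32851 windows of the same length. For Hes1, Hey1, Heyl and Nrarp no match was found or no window was available. Psen2 was one of the 5, and the other 4, Hes5, Hes7, Hey2 and Lfng, are known as Notch targets. Their windows are shown because the comparison below reads Notch output through such genes; each runs 5′ to 3′ on the strand of the gene, with the matches in capitals (TTCCCAC is the same site on the other strand). The Hes5 window (chr4:154960673-154960872, plus strand) held 2 matches, found in 0.0974% of all windows. The others were chr11:69120203-69120402 (Hes7, plus strand), chr10:30842834-30843033 (Hey2, minus strand) and chr5:140607091-140607290 (Lfng, plus strand), with 1 match each.
Hes5: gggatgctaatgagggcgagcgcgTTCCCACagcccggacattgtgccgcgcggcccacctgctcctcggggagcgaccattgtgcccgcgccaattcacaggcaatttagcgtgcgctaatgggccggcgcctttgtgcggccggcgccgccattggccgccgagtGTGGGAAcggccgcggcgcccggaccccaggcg
Hes7: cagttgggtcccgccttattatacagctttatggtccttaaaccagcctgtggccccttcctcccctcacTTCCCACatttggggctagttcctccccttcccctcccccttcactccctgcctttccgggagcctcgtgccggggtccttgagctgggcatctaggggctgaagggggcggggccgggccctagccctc
Hey2: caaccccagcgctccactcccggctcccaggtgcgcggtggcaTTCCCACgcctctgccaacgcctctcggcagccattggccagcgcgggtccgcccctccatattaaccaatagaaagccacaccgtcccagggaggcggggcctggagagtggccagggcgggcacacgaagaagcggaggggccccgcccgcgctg
Lfng: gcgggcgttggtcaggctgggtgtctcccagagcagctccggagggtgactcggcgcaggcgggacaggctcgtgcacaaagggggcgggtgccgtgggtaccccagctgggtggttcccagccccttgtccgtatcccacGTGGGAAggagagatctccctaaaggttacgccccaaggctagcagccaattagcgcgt
A match describes the letters only and is no evidence of binding in these cells.

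The libraries held 33.5 to 41.8 M counts (M, 1000000). Esrrg, the targeted gene, was higher in the libraries labelled cKO, with 89.8 ± 15.2 counts per 1000000 counts (CPM) against 58.4 ± 6.34 CPM in controls (SD, n = 5 each; log2 fold change 0.62, edgeR adjusted p = 0.0259; exact two-sided permutation p = 0.00794, the smallest the design allows). The call was lost in 7 of the 10 fits that left out 1 library, those without control 1, 3, 4 or 5 or without cKO 1, 2 or 5, with adjusted p from 0.0505 to 0.0992. The whole-gene count of the targeted gene was thus not lower in the Cre-bearing libraries. It also takes in reads of any transcript that lacks only the floxed part, so it does not show whether recombination took place. Those libraries are named by their label only (cKO 1 to 5 in lists of values), on which every direction here rests. Markers of the cell types of the cochlea were present: none of the 11 hair cell markers or the 12 markers of supporting and prosensory cells was listed at 0 in every library. Of 123 marker genes tested over all lists, 10 (8.13%) were called between the genotypes, against 0.619% of all tested genes, and all 10 were lower in the libraries labelled cKO, among them Elavl4, Slc17a7, Calb2, Pvalb and Scrt2 of spiral ganglion neurons, Olig1, Olig2 and Aqp4 of brain glia, and Tfrc of erythroid cells; 8 of these 10 calls held in every fit with 1 library left out, and those of Pvalb and Scrt2 did not. The other 5 of the 8 brain glia markers were not called, Slc1a3 (0.12) and Pdgfra (0.24) having fold changes above 0, and the summed level of that list was 548 to 647 CPM in controls, against 580 to 726 CPM under the cKO label. Pdgfra, also on the list of periotic mesenchyme, had the most counts of these markers, 11253 to 18436 per library. Olig1 had 24 to 338, Olig2 9 to 102 and Aqp4 48 to 300, so the sum does not show the level of the called genes. Macrophage markers, of which 0 of 8 were called, were the one list whose summed levels did not overlap, at 274 to 317 CPM in controls, against 331 to 385 CPM under the cKO label; their part in the Notch values was not tested. With control 2 left out, Prox1 and Isl1 of supporting and prosensory cells were called as well, both lower, with edgeR adjusted p of 0.0193 and 0.0323. At an unadjusted p under 0.05 that list of 12 then had 3 higher and 4 lower genes, and its summed level over all libraries was 1891 to 2154 CPM in controls, against 1893 to 2136 CPM under the cKO label. In whole tissue, fewer cells of a type and less RNA per cell cannot be told apart.

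One library stands apart, in the Notch genes as over all genes tested, and has to be described before the comparison. Control 2 was the lowest control library for 16 of the 39 genes and the highest for 14, 30 of 39 together, against 70.5% over all genes tested. Set against the mean of the other 4 controls, it lay between -1.35 (Notch1) and 0.87 (Hes7) on the log2 CPM scale, and 10 of the 39 genes were more than 0.5 away, where no other library had more than 2. Over all genes tested, 30.4% were that far away in control 2, and 8.69% to 11.5% in the other libraries. These deviations followed gene length. Across the 39 genes, Pearson's r between deviation and log2 merged exon length was -0.81 (Spearman's rho -0.79) in control 2, and r lay between -0.22 and 0.27 in the 5 libraries labelled cKO; the genes share the library, so this is a description. In the other controls, whose comparison mean includes control 2, r was 0.26 to 0.64. The 18 members longer than 5 kb had a median deviation of -0.23 in control 2, and the 12 shorter than 3 kb one of 0.48. Over all 17929 tested genes with a length, r was -0.35. Control 2 also stood at an end of the controls in summed marker levels. It was the highest control for erythroid markers (3052 CPM, lowest control 809 CPM), spiral ganglion neurons, Schwann cells with satellite glia, and macrophages. For brain glia, pericytes with smooth muscle, and cartilage with bone it was the lowest control. In the other marker lists it lay inside the control range. The part of tissue content in its deviations was not tested. Of the 39 fold changes, 9 moved by over 0.1 on the log2 scale when control 2 was left out, and the plot of fold changes shows both estimates. Exons of 18 of the 39 genes overlap those of another gene, 14 of them on the opposite strand; whether strand was used in counting is not given in the sources used here, so reads of such partners could not be told apart.

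**Figure D1:**
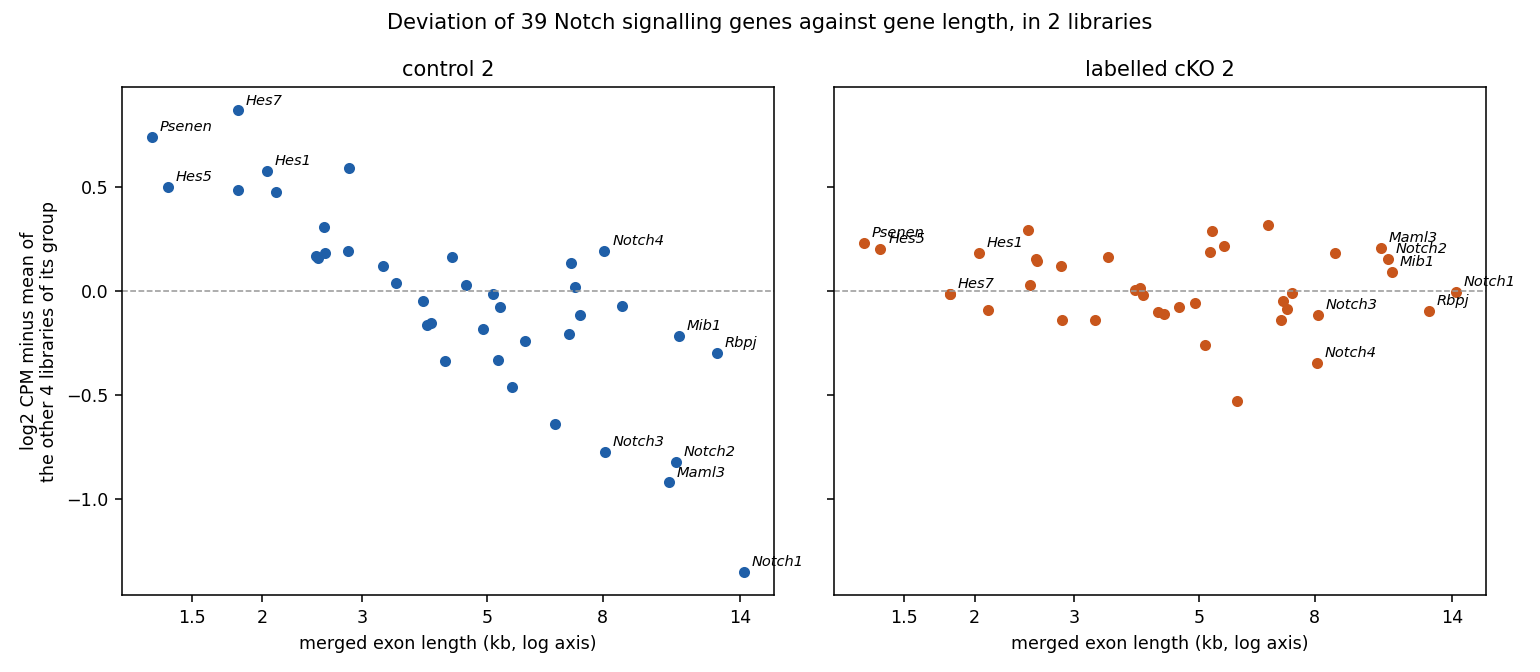
Deviation of each of the 39 genes (points) from the mean of the other 4 libraries of its group, in log2 CPM, against merged exon length in kb on a log axis. In control 2 the long receptor genes Notch1, Notch2 and Notch3 lie low and the short genes Psenen, Hes1 and Hes7 lie high (r = -0.81), while in the library labelled cKO 2 the slope is weak (r = -0.19).

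The main comparison asked whether the pathway differed between the genotypes at any step. None of the 39 genes was called at an edgeR adjusted p under 0.05; over all 17937 genes tested 0.619% were called, 0.0725% higher and 0.546% lower. The lowest adjusted p was 0.293, for Neurl1a, and the other 38 were above 0.4. At an unadjusted p under 0.05 there were 7 of the 39 genes, all higher in the libraries labelled cKO, where 9.65% of all tested genes passed in either direction, 4.13% on the higher side and 5.52% on the lower. DESeq2 and limma-voom also called 0 of the 39, with an unadjusted p under 0.05 for 7 higher and 0 lower genes in DESeq2 (6.34% of all genes it tested, either direction) and for 6 higher and 2 lower genes in limma-voom (15.8%). The fold change was above 0 for 26 of the 39 genes and for 48.3% of all tested genes, with medians of 0.05 and -0.01 on the log2 scale. Without control 2 edgeR called 0 of the 39 genes, and 1.09% of all tested genes (0.105% higher and 0.981% lower). At an unadjusted p under 0.05 there were then 5 genes, all higher, where all tested genes gave 10.2% in either direction, 3.92% higher and 6.25% lower. The fold change was above 0 for 28 genes and for 48.4% of all tested genes, with a median of 0.04 over the 39.

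The 95% interval of the fold change lay within 1.5-fold in either direction for 37 of the 39 genes and within 2-fold for 38; the exceptions were Notch1, which exceeded 1.5-fold, and Hes7, which exceeded both. By step, the median log2 fold change was 0.28 for 4 receptors, -0.09 for 6 ligands, 0.23 for the 2 genes of ligand endocytosis, 0.0094 for 3 fringe enzymes, 0.04 for 6 proteases, 0.19 for 4 genes of the nuclear complex, 0.03 for 7 intracellular modulators and -0.02 for 7 HES and HEY factors. Without control 2 the receptor median was 0.13 and that of the nuclear complex 0.08.

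**Figure D2:**
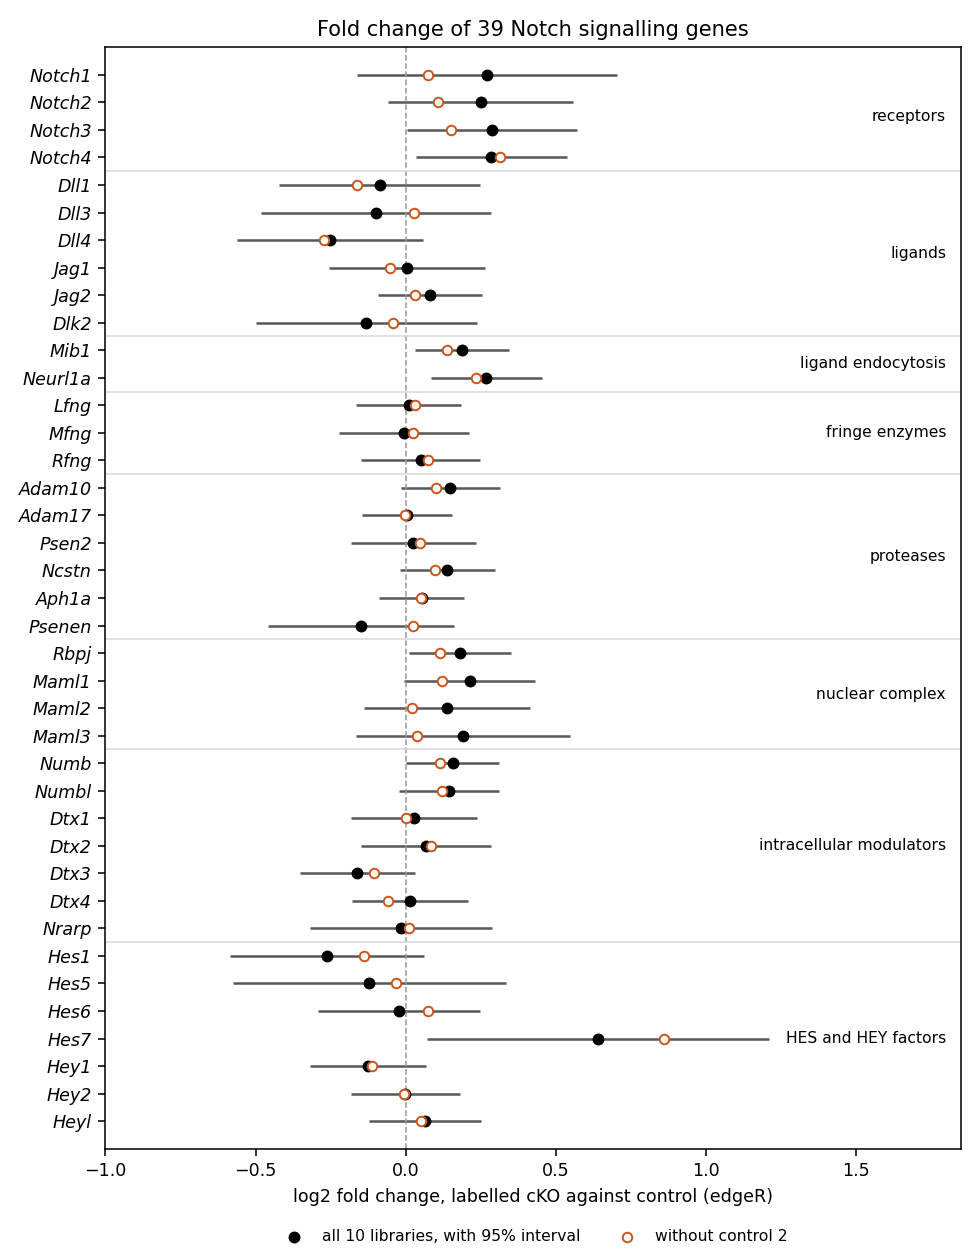
Log2 fold change of each of the 39 genes in the libraries labelled cKO against control, grouped by step of the pathway. Black points with bars give the edgeR estimate and its 95% interval from all 10 libraries, and open circles the estimate without control 2; for Notch1 the estimate goes from 0.27 to 0.07 and for Hes7 from 0.64 to 0.86.

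The receptors are the entry of the pathway. Per gene length, in FPKM (fragments per kilobase of gene and per 1000000), Notch2 was the most abundant in controls at 21.1 ± 4.99, followed by Notch3 at 13.6 ± 2.91, Notch1 at 11.7 ± 3.78 and Notch4 at 3.32 ± 0.219 (SD, n = 5). The control libraries of Notch2 and Notch3 overlapped, as did those of Notch3 and Notch1, and those of Notch4 lay below them all. Within each of the 10 libraries the order was the same. Notch2 made up 42.4% ± 1.53 of the receptor FPKM in controls and 41.9% ± 2.23 in the libraries labelled cKO.

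Notch2, a receptor of many progenitor and mesenchymal cells, had 225, 142, 269, 273 and 235 CPM across controls 1 to 5, against 239.9, 296, 264, 277 and 284 CPM across cKO 1 to 5. Control 2 was far below the rest, the groups overlap, and 3 libraries labelled cKO were above every control. The log2 fold change was 0.25 (95% interval -0.06 to 0.56, edgeR adjusted p = 0.611), and 0.11 without control 2. Notch1, the receptor of lateral inhibition, was added after its values were seen, since control 2 was so low. The gene (chr2:26457903-26516663, minus strand, GRCm38) had 182, 74.8, 179, 212 and 192 CPM across controls 1 to 5, against 180.1, 202, 208, 196 and 227 CPM across cKO 1 to 5. Control 2 was at 0.391 times the mean of the other controls, 3 of the other 4 controls lay inside the labelled cKO range and control 3 just below it. Its log2 fold change was 0.27 (95% interval -0.16 to 0.70), and 0.07 (-0.08 to 0.22) without that library.

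Notch3, known from pericytes, had 113, 70.1, 120.3, 129 and 117 CPM across controls 1 to 5, against 123, 126, 142, 135 and 145 CPM across cKO 1 to 5. The labelled cKO values were high, with 3 libraries above every control. A log2 fold change of 0.29 (SE 0.132) came with an unadjusted p of 0.0478 and an edgeR adjusted p of 0.513, and without control 2 it was 0.15 with an adjusted p of 0.427. Notch4, known from endothelium, behaved differently in control 2, where it was the highest control: the values were 24.8, 30.02, 26.04, 27.5 and 26.7 CPM across controls 1 to 5, against 40.6, 26.8, 32.1, 27.6 and 37.5 CPM across cKO 1 to 5. The libraries labelled cKO 1, 3 and 5 were above every control and cKO 2 and 4 were inside the control range. Its log2 fold change was 0.29 (SE 0.118, adjusted p = 0.465), and 0.32 without control 2 (adjusted p = 0.305). Of the 12 endothelial markers 8 were above 0 in fold change and 0 were called; their summed level was 595 to 715 CPM in controls, against 675 to 719 CPM under the cKO label. The 9 pericyte and smooth muscle markers had 0 calls and summed levels of 424 to 523 and 493 to 537 CPM, with the lowest value in control 2. The part of these cells in the receptor values was not tested.

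**Figure D3:**
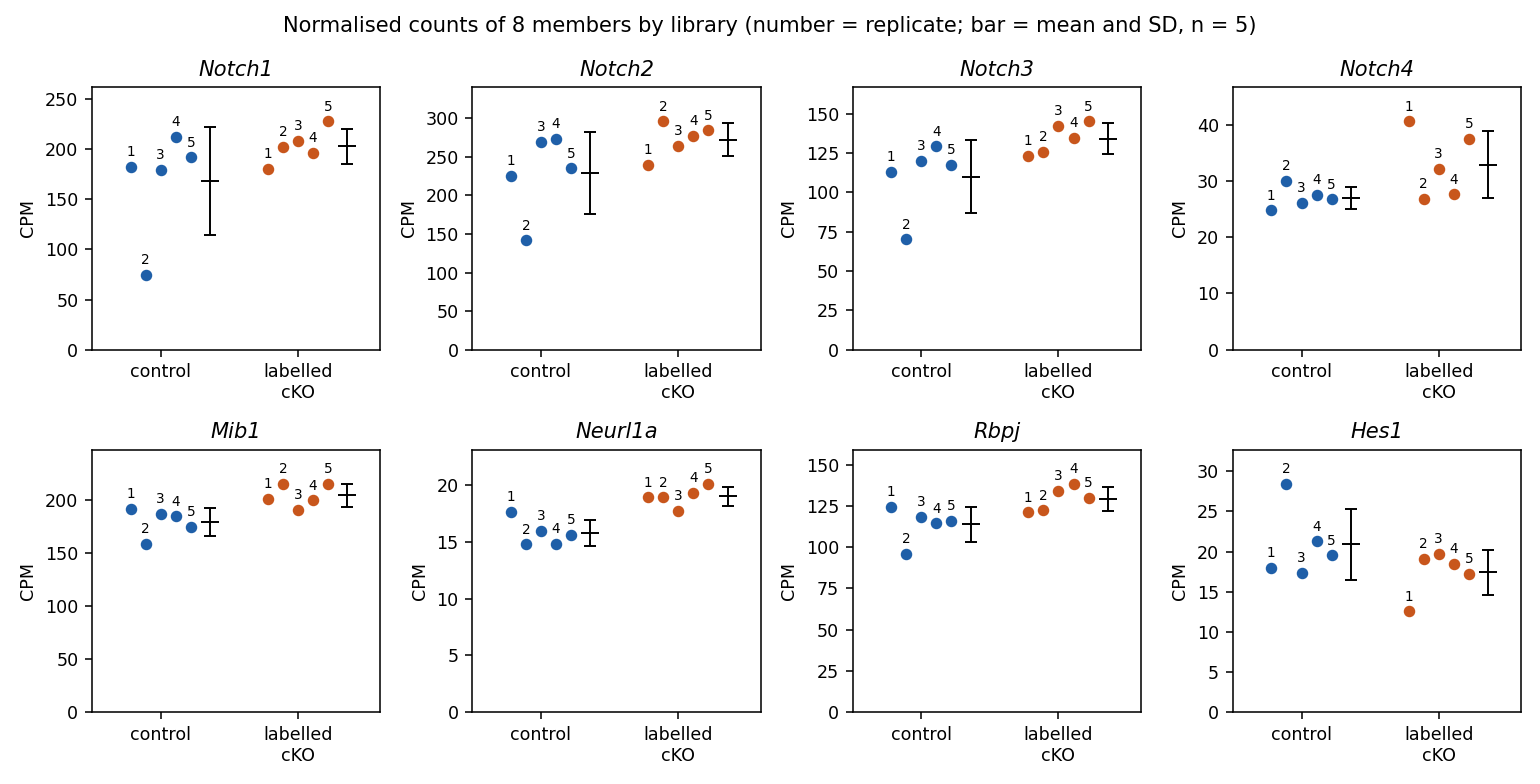
CPM of 8 Notch signalling genes in each library, with replicate numbers beside the points and the mean and SD of 5 libraries at the side of each group. Control 2 is the lowest of all 10 libraries for Notch1, Notch2, Notch3, Mib1 and Rbpj and the highest for Hes1, and Neurl1a is the gene whose groups do not overlap (controls up to 17.6, labelled cKO from 17.7 CPM).

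Among the 6 listed ligands, Jag1, the Jagged ligand of the prosensory domain and of supporting cells, was the most abundant per length. It was at 16.97 ± 1.71 FPKM in controls, or 51.04% ± 3.29 of the FPKM of these ligands. Dner and Dlk1, from the further gene list given below, are not part of that share. Jag2, a ligand of hair cells, followed at 6.84 ± 0.535 FPKM. The non-canonical ligand Dlk2 (4.97 ± 1.26) overlapped Jag2 across control libraries. Dll4 (2.28 ± 0.345), Dll1 (1.16 ± 0.212) and Dll3 (1.01 ± 0.233), the last known for acting inside the cell, were the lowest, and Dll1 and Dll3 overlapped. Jag1 had 105, 87.1, 92.6, 102 and 111 CPM across controls 1 to 5, against 88.1, 73.5, 119, 108 and 112 CPM across cKO 1 to 5. The groups interleave, with both the lowest and the highest library labelled cKO, and the 95% interval of the log2 fold change ran from -0.26 to 0.26.

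Dll4, the endothelial Delta ligand, showed the ligand fold change farthest from 0. It had 7.51, 8.55, 9.77, 10.6 and 7.78 CPM across controls 1 to 5, against 6.03, 7.35, 9.60, 7.2 and 6.89 CPM across cKO 1 to 5. Of the libraries labelled cKO, 4 were below every control and cKO 3 was high, inside the control range. The log2 fold change was -0.25 (95% interval -0.56 to 0.06, edgeR adjusted p = 0.611). Notch4, also known from endothelium, had a fold change of the other sign, and neither gene was called. Dll1, the Delta ligand of nascent hair cells, had a log2 fold change of -0.09 (-0.42 to 0.25) on 128 to 251 counts per library, and 20.6% of its exon length is shared with a gene on the opposite strand. Dll3, Jag2 and Dlk2 had -0.10, 0.08 and -0.13, with adjusted p of at least 0.768.

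Endocytosis of ligands by the ubiquitin ligases MIB1 and NEURL1A gives the pull that opens the receptor. Both genes had an unadjusted p under 0.05 and neither was called. Neurl1a (chr19:47178820-47259441, plus strand, GRCm38) had 17.6, 14.8, 16.0, 14.8 and 15.6 CPM across controls 1 to 5, against 18.9, 18.9, 17.7, 19.3 and 20.1 CPM across cKO 1 to 5. It was the only one of the 39 genes without overlap between the groups, and by a narrow margin; 2.84% of all tested genes show none, 1.2% being higher and 1.64% lower. The means were 15.8 ± 1.17 and 19.0 ± 0.842 CPM (SD, n = 5), a log2 fold change of 0.27 (SE 0.0863, adjusted p = 0.293) and 0.23 without control 2. Exons of Neurl1a overlap those of another gene over 9.47% of their length. Mib1, at 17.2 ± 1.36 FPKM in controls against 3.54 ± 0.280 for Neurl1a, had 192, 159, 187, 185 and 175 CPM across controls 1 to 5, against 201, 215, 191, 199.9 and 215 CPM across cKO 1 to 5. The groups touch at control 1 and cKO 3, and the log2 fold change was 0.19 (95% interval 0.03 to 0.35, adjusted p = 0.421), or 0.14 without control 2.

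Fringe enzymes add sugars to the receptor and so tune which ligand it hears. Lfng, which marks supporting cells of the sensory epithelium and carries the match shown above, was the most abundant at 16.5 ± 1.58 FPKM in controls, before Rfng at 12.96 ± 0.861 and Mfng at 5.14 ± 0.543, and the control libraries of these genes did not overlap. Lfng had 38.1, 45.5, 41.7, 46.2 and 37.4 CPM across controls 1 to 5, against 42, 42.8, 41.96, 39.3 and 44.1 CPM across cKO 1 to 5. All labelled cKO libraries fell within the control range, and the 95% interval of the log2 fold change was -0.17 to 0.19. Rfng had 30.1, 35.6, 31.5, 34.2 and 31.2 CPM across controls 1 to 5, against 35.3, 39.5, 30.5, 30.4 and 32.8 CPM across cKO 1 to 5, overlapping throughout except for a high cKO 2, with a log2 fold change of 0.05 (-0.15 to 0.25). Mfng had an interval of -0.22 to 0.21.

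The proteases that cut the receptor include the most abundant of the 39 genes per length. Adam10, which makes the first cut, reached 48.6 ± 4.69 FPKM in controls, and Adam17, its relative, 13.5 ± 0.636. Of the gamma-secretase subunits, Ncstn was at 41.4 ± 2.66, Psenen at 35.6 ± 9.14, Aph1a at 27.04 ± 0.584 and the catalytic subunit Psen2 at 4.59 ± 0.403 FPKM. Adam10 had 251, 216, 259.9, 257 and 218 CPM across controls 1 to 5, against 255, 258, 269.6, 271 and 278 CPM across cKO 1 to 5. Controls 2 and 5 were low, controls 3 and 4 lay inside the labelled cKO range and control 1 just below it; the log2 fold change was 0.15 (-0.02 to 0.31, edgeR adjusted p = 0.574).

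Psenen, the smallest subunit, had 40.1, 67.6, 40.7, 39.5 and 41.3 CPM across controls 1 to 5, against 42.1, 46.8, 37.4, 44.3 and 36.1 CPM across cKO 1 to 5. Control 2 is far above all other libraries, and its removal took the coefficient of variation of the controls from 26.5% to 1.83%. The log2 fold change went with it, from -0.15 (95% interval -0.46 to 0.16) to 0.02 (-0.15 to 0.20). For Adam17, Psen2, Ncstn and Aph1a the estimates were 0.0041, 0.02, 0.14 and 0.05, with adjusted p of at least 0.582.

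In the nucleus, RBPJ binds DNA and the Mastermind proteins bridge to the transcription machinery. Maml1 was at 15.5 ± 2.17 FPKM in controls, Rbpj at 8.86 ± 0.877, Maml2 at 7.43 ± 1.44 and Maml3 at 5.13 ± 1.36. All 4 were above 0 in fold change. Rbpj had 124, 96.1, 118, 114 and 116 CPM across controls 1 to 5, against 121, 122, 134, 138 and 130.0 CPM across cKO 1 to 5. Control 1 was the one control inside the labelled cKO range. Its log2 fold change was 0.18 (SE 0.0792, edgeR adjusted p = 0.489), with 0.12 and an unadjusted p of 0.0676 without control 2. Maml1 had 90.8, 66.5, 86.9, 91.3 and 96.7 CPM across controls 1 to 5, against 93.2, 113, 91.4, 94.98 and 109 CPM across cKO 1 to 5, where cKO 2 and 5 were high and control 2 low; its log2 fold change was 0.21 (-0.01 to 0.43), or 0.12 without control 2. Maml2 and Maml3, from 0.14 and 0.19, came to 0.02 and 0.04 without that library, and to -0.04 and -0.03 with limma-voom.

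The intracellular modulators are a mixed group. NUMB and NUMBL oppose Notch by endocytosis, Deltex proteins are ubiquitin ligases, and NRARP, itself a target, destabilises the nuclear complex. Not every Deltex protein is known to bind the receptor, and binding was not tested here. Dtx3 dominated this step at 43.9 ± 5.00 FPKM in controls, before Numb at 9.50 ± 0.652 and Numbl at 8.85 ± 0.487, which overlapped. Dtx3 had 97.7, 135, 112, 118 and 108 CPM across controls 1 to 5, against 105, 111, 91.7, 96.8 and 105 CPM across cKO 1 to 5. Control 2 was the highest and 2 libraries labelled cKO lay below every control; the log2 fold change was -0.16 (95% interval -0.35 to 0.03, edgeR adjusted p = 0.605).

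Numb had 38.99, 34.2, 37.96, 40.1 and 36.2 CPM across controls 1 to 5, against 43.5, 42.1, 41.6, 40.0 and 41.7 CPM across cKO 1 to 5. Here 4 of the 5 libraries labelled cKO were above every control and cKO 4 was just within their range. The log2 fold change was 0.16 (SE 0.0727), with an unadjusted p of 0.0499 and an edgeR adjusted p of 0.517, and 0.11 with an unadjusted p of 0.0961 without control 2. Numbl, its paralogue, had 0.14 (adjusted p = 0.592). Dtx1, Dtx2 and Dtx4 lay between 0.01 and 0.07. Nrarp had an interval of -0.32 to 0.29, but 79.4% of its exon length is shared with a gene on the opposite strand, so its reads could not be assigned with certainty.

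The HES and HEY factors are where Notch activity is usually read, with the exception of HES6, which opposes HES1 and is not a standard target. Hes6 was the most abundant at 22.3 ± 4.37 FPKM in controls, followed by Hes1 (10.2 ± 2.09), Hey1 (10.1 ± 0.878), Heyl (7.73 ± 0.327), Hey2 (3.85 ± 0.230), Hes5 (2.64 ± 0.774) and Hes7 (0.510 ± 0.169). Hes1 and Hey1 overlapped across control libraries, and the other neighbours in this order did not. Hes6 had 45.8, 52.4, 33.03, 36.4 and 35.3 CPM across controls 1 to 5, against 44.4, 39.6, 35.0, 37.6 and 43.6 CPM across cKO 1 to 5, all of the latter within the control range, with an interval of the log2 fold change of -0.29 to 0.25.

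Hes1 and Hes5, the main effectors in supporting cells, are given in every library although the rule did not name them. Hes1 had 17.96, 28.4, 17.3, 21.3 and 19.5 CPM across controls 1 to 5, against 12.6, 19.1, 19.7, 18.5 and 17.2 CPM across cKO 1 to 5. The high control 2 and the low cKO 1 are the ends of otherwise interleaved groups. Its log2 fold change was -0.26 (95% interval -0.58 to 0.06, edgeR adjusted p = 0.6104), and -0.14 (-0.39 to 0.12) without control 2. Hes5 had 4.13, 4.61, 3.36, 4.16 and 1.89 CPM across controls 1 to 5, against 3.30, 3.72, 3.38, 2.60 and 3.69 CPM across cKO 1 to 5. Control 5 was the lowest of all, at 74 counts, and every library labelled cKO fell inside the control range. The interval was -0.58 to 0.33, the widest of the step after Hes7, and a gene on the opposite strand shares 31.8% of the exon length of Hes5.

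Hes7, the clock repressor of the segmenting embryo, lies at chr11:69120404-69124055 (plus strand, GRCm38) and was the lowest of the 39 genes, with 25 to 70 counts per library. It had 0.82, 1.49, 0.72, 0.86 and 0.77 CPM across controls 1 to 5, against 2.10, 1.40, 1.02, 1.17 and 1.58 CPM across cKO 1 to 5. Control 2 is the one control that overlaps, and the rest of the controls lay below every library labelled cKO. The log2 fold change was 0.64 (SE 0.265, edgeR adjusted p = 0.468), and 0.86 with an adjusted p of 0.151 without control 2. A gene on the opposite strand shares 12.9% of its exon length. Among the HEY repressors, Hey1 had -0.13 (-0.32 to 0.07), Heyl 0.06 (-0.12 to 0.25), and Hey2, known from pillar cells, an interval of -0.18 to 0.18. Atoh1, the hair cell determinant that HES factors repress, and Sox2 of the prosensory domain are named outside the rule for markers, and neither was called. Their log2 fold changes were 0.28 (edgeR adjusted p = 0.619) and -0.07 (edgeR adjusted p = 0.883). Of their lists, 5 of 11 hair cell markers and 5 of 12 markers of supporting and prosensory cells were above 0, and 0 were called.

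**Figure D4:**
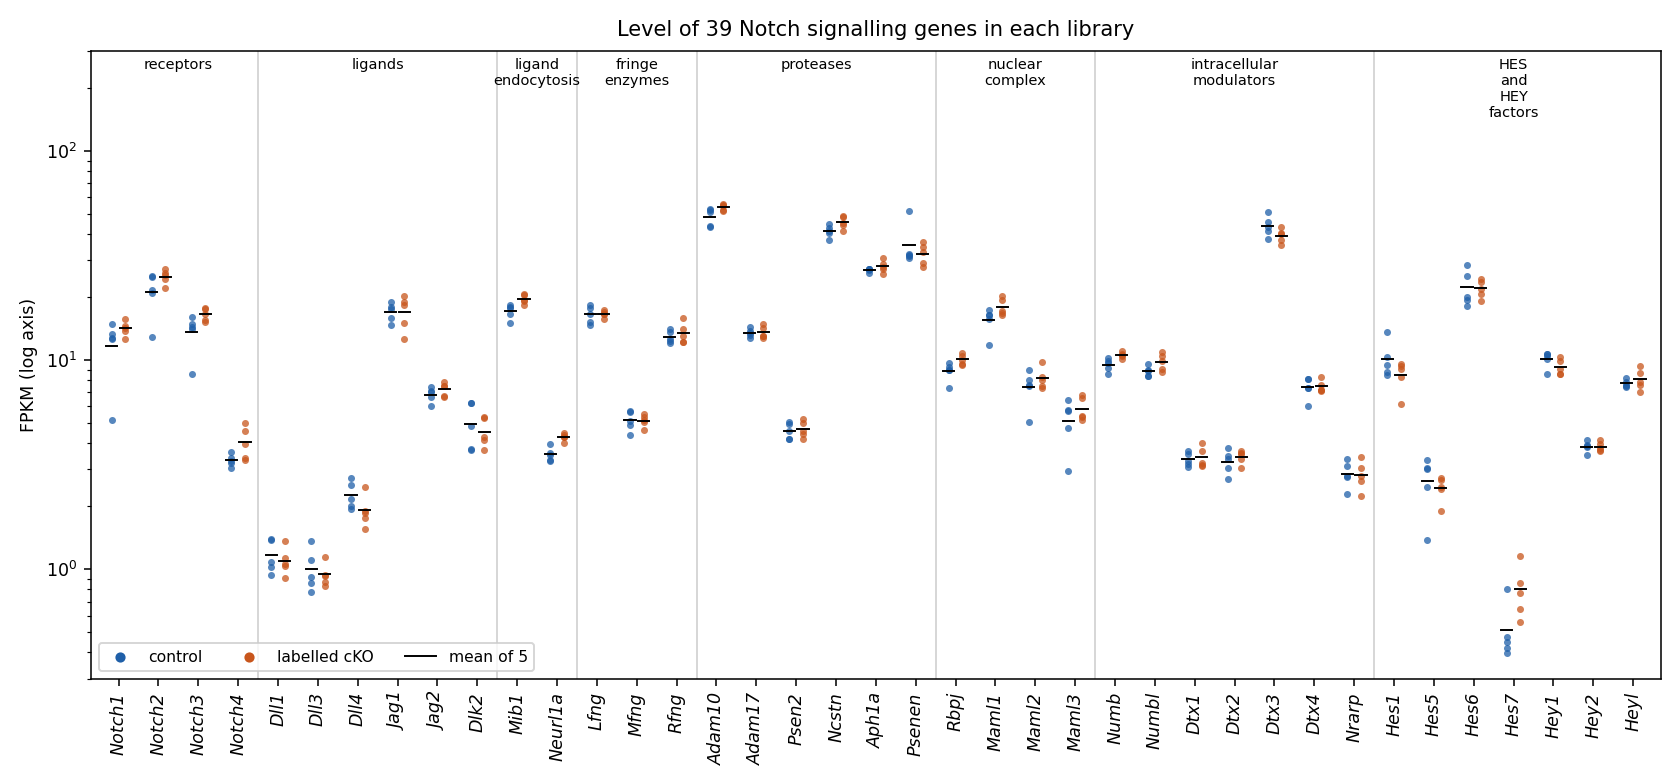
FPKM of the 39 genes on a log axis, grouped by step, with 1 point per library and the mean of 5 libraries as a bar. Levels run from 0.510 FPKM for Hes7 to 48.6 FPKM for Adam10 in controls, and Notch4 is the lowest receptor in both groups.

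The rest of the pathway was taken from a further list of 49 genes, of which 46 were tested. None was called, 31 were above 0 in fold change and 15 below, and the median was 0.06 on the log2 scale. Over all tested genes, 48.3% were above 0. Without control 2, 29 of these pathway genes were above 0 and 17 below, with a median of 0.025. With all 10 libraries, 4 had an unadjusted edgeR p under 0.05, 2 in each direction, or 8.70% of the 46, near the 9.65% of all tested genes. The 3 with the smallest p were Dner, Pofut1 and Tle4. Dner, a neuronal protein described as a Notch ligand, had 62.1 ± 4.67 CPM in controls, against 50.5 ± 7.87 CPM under the cKO label (log2 fold change -0.30, edgeR adjusted p = 0.338), and its groups overlap. The spiral ganglion neuron markers, 10 of 12 below 0 and 6 called, had summed levels of 1123 to 1342 CPM in controls, against 613 to 1195 CPM under the cKO label; their part in the Dner value was not tested. Pofut1, which adds the fucose that fringe enzymes extend, was at 87.3 ± 4.65 and 97.3 ± 2.93 CPM without overlap between the groups (0.16, adjusted p = 0.473). Tle4, a Groucho-type corepressor used by HES factors, was at 68.2 ± 0.980 and 61.1 ± 4.50 CPM (-0.16, adjusted p = 0.495).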

How the data were processed

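Polyadenylated RNA was sequenced as paired reads, per the labels' protocols. The authors deposited gene counts, as whole numbers under Ensembl IDs, and FPKM, whose implied gene lengths were within 1% of the merged exon length for 95.7% of 13928 genes. The submitters' processing notes name STAR 2.5, HTSeq 0.61 and DESeq2, and the build mm10; the strand setting is not given in the sources used here. Symbols, lengths and exon overlaps came from GENCODE M21 (GRCm38), which held 54495 of 54532 gene IDs.

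The deposited counts were tested with edgeR 4.0.16 (R 4.3.3): filterByExpr, minimum 10 counts, 17937 genes; TMM factors, from which CPM were computed; robust quasi-likelihood F-test with genotype as the only term; Benjamini-Hochberg adjustment over all tested genes; a call at an adjusted p under 0.05. Standard errors and 95% intervals were derived from the F statistic. FPKM values were used as deposited, for levels between genes; the method was tested on simulated data. Each library is 1 animal, so p-values measure the spread between animals. Libraries held 33.5 to 41.8 M counts.

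The members and all lists were chosen with earlier results of these data known. Values in every library are given for members at an unadjusted p under 0.05 and, per step, for the member with the highest control FPKM and that with the largest absolute fold change; of the 49 other pathway genes, those called or else the 3 with the smallest p; of the markers, those called, of which 1 is not reported here by name.

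Alternatives were DESeq2 1.42.0, limma 3.58.1 (voom with quality weights; log2(FPKM + 0.1) and log2(FPKM + 1)), other size factors and filters, a replicate block, other thresholds, and leaving out each library. An offset for GC content and length was added after seeing the data.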

Additional observations from a re-analysis of the deposited data

Results flagged for a closer look

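Each of the 39 genes was put through Dixon's test, which looks for 1 value far from the rest, once per genotype (5 values). Chance gives about 5% of groups, or 3.9 of 78, and 4 were found, all in control 2. Notch1 was low there, at 74.8 CPM with the other controls at 179 to 212 CPM. Notch3 was low as well, at 70.1 CPM with the others at 113 to 129 CPM. Psenen was high, at 67.6 CPM with the others at 39.5 to 41.3 CPM. Hes7 was high, at 1.49 CPM with the others at 0.725 to 0.859 CPM. The long genes are the low ones and the short genes the high ones. The receptor FPKM shares show the same library: Notch4 made up 12.1% of the receptor FPKM in control 2 and 5.71% to 6.23% in the other controls, and Notch1 17.04% where the others had 22.6% to 25.3%.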

How the results depend on the processing

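The count of called Notch genes was 0 in each direction under every alternative fit at an adjusted p under 0.05. It was also 0 in the main fit at thresholds of 0.1 and 0.01, which were applied to that fit only. The lowest adjusted p of any of the 39 genes was 0.0818, for Neurl1a with limma-voom, which would pass a threshold of 0.1. The number of calls over all genes, 111, was 288 with DESeq2, 436 with limma-voom, 190 with the GC and length offset, 48 at a threshold of 0.01, and 52 to 197 with 1 library left out; the causes were not tested. The log2 fold change of Esrrg was 0.54 to 0.70 with 1 library left out, and its call was lost on log2(FPKM + 0.1) at 0.61, on log2(FPKM + 1) at 0.57 and with the replicate block at 0.61 (adjusted p of 0.0501, 0.0504 and 0.0562). The replicate block gave 101 calls over all genes, with an unadjusted edgeR p under 0.05 for 12.2% of them, against 9.65% in the main fit. Between same-numbered libraries the correlations of deviations were low, 2 of 5 being over 0.1 (range 0.02 to 0.18). Yet 3 of 5 controls, those numbered 2, 3 and 5, correlated best with their own number. The library labelled cKO 5 was the best partner of controls 1 and 4 as well as of control 5. Whether the libraries pair by number was not settled.

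Of the 39 genes, 22 kept the sign of their fold change under all 20 alternative fits, among them every receptor, Dll4, Mib1, Neurl1a, Rbpj, Maml1, Numb, Hes1, Hes5 and Hes7. The other 17 had a fold change within 0.19 of 0 and changed sign at least once. With limma-voom, values of the other sign were, on the log2 scale, Dll3 0.073, Dlk2 0.0027, Lfng -0.018, Psenen 0.0085, Maml2 -0.041, Maml3 -0.026, Dtx1 -0.0014, Dtx4 -0.062, Hes6 0.090, Hey2 0.023. With upper-quartile factors, values of the other sign were Jag1 -0.0091, Lfng -0.0039, Adam17 -0.0090. With limma on log2(FPKM + 0.1), values of the other sign were Jag1 -0.0085, Mfng 0.0031, Hey2 0.0034. With limma on log2(FPKM + 1), values of the other sign were Jag1 -0.0073, Mfng 0.0022, Hey2 0.0027. With the replicate block, the value of the other sign was Jag1 -0.012. With the GC and length offset, values of the other sign were Jag1 -0.023, Mfng 0.014, Adam17 -0.025, Psen2 -0.00017, Dtx1 -0.010, Dtx2 -0.0016, Dtx4 -0.015, Nrarp 0.016, Hes6 0.050, Hey2 0.0066. With no filter on low counts, values of the other sign were Mfng 0.0019, Hey2 0.0063. With DESeq2, the value of the other sign was Hey2 0.0040. With 1 library left out, the log2 fold changes that changed sign ranged as follows: Dll3 (-0.18 to 0.028), Jag1 (-0.066 to 0.091), Lfng (-0.028 to 0.045), Mfng (-0.060 to 0.032), Rfng (-0.016 to 0.086), Adam17 (-0.031 to 0.023), Psen2 (-0.022 to 0.063), Psenen (-0.20 to 0.023), Dtx1 (-0.038 to 0.062), Dtx4 (-0.058 to 0.048), Nrarp (-0.095 to 0.054), Hes6 (-0.089 to 0.075), Hey2 (-0.036 to 0.028). Hes7, Hes5, Dll1 and Dll3 had the fewest counts, at most 251 in any library; the part of depth in their wide intervals was not tested.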
